A study of Mus musculus with 9 samples.

Results

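The miRNA pool of adult wild-type (WT) quadriceps was described from 3 of the 9 libraries of the study, those labelled skeletal muscle of WT mice. The study sequenced small RNA from the quadriceps of mice that lack the splicing regulator MBNL1 or MBNL2 and of WT mice, to ask how these proteins shape muscle miRNA levels. Every library came from 1 mouse of 90 days. The WT mice were C57BL/6J, Mbnl1+/+ and Mbnl2+/+. The knockout libraries, used below only to show where the WT pool differed, were Mbnl1KO (C57BL/6J, Mbnl1 deltaE3/deltaE3, Mbnl2+/+) and Mbnl2KO, on the strain B6.C-Tg(CMV-cre)1Cgn/J and with Mbnl1 intact (Mbnl1+/+), 3 mice each. The Mbnl2 alleles of the Mbnl2KO mice were labelled deltaE2/deltaE2, deltaE2/deltaE3 and deltaE2/deltaE4 in replicates 1, 2 and 3, while the study describes them all as deltaE2/deltaE2, and the labels were not used to tell these mice apart. The study describes the WT mice as littermates, but the labels name no litter or batch for any mouse, so the spread given here is that among these animals. The table listed 1966 mature miRNAs, of which 707 had at least 1 count in a WT library, and all 707 were used. The study also describes miRNAs of these muscles, among them miR-486a-5p, miR-486b-5p, miR-203-3p, miR-24-3p, miR-126a-3p, miR-27a-3p, miR-133b-3p and miR-379-5p, that this table lists at 0 or with few counts, and in its own counting miR-143-3p, miR-378a-3p, miR-378c and miR-27b-3p stand higher than here. The shares, ranks, arm use and ratios given here are therefore those of the reads listed in this table, which leave out part of the miRNA reads of the tissue.

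A mature miRNA is cut from a hairpin precursor, and either arm of the hairpin, named 5p or 3p, can be loaded into an Argonaute protein and guide it to mRNAs that pair with the seed near its 5′ end. miRNAs with the same seed form families that can act on the same targets. Striated muscle is known for a small set of very abundant miRNAs, the myomiRs, which include miR-1 and miR-133, made from shared primary transcripts and needed for normal muscle fibres, and miR-206, which is found in skeletal but not heart muscle.

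The mature sequences below are those of the families that held most of the pool beside miR-1a-3p, written 5′ to 3′ with the seed (bases 2 to 8) in capitals. They were taken from RefSeq (GRCm38.p6), which matched 614 of the 707 miRNAs. Of the leading miRNAs, miR-1a-3p, miR-133a-3p, miR-30d-5p, miR-378a-3p and miR-143-3p are named only. The first set shares the seed of the miR-30 family, whose members differ only behind the seed.
miR-30a-5p: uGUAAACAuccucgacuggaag
miR-30c-5p: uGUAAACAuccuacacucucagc
miR-30e-5p: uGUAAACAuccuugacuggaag

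The second set holds the most abundant members of the let-7 family, known as inhibitors of growth and of the embryonic programme in differentiated cells.
let-7f-5p: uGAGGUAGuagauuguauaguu
let-7g-5p: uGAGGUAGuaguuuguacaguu
let-7a-5p: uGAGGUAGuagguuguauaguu
let-7c-5p: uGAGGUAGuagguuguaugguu
let-7i-5p: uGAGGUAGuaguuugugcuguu
let-7d-5p: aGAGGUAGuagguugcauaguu

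The third set holds both miR-26 miRNAs and the abundant miRNAs that stood alone with their seeds, miR-22-3p and miR-21a-5p, and miR-206-3p, a myomiR known from regenerating muscle.
miR-26a-5p: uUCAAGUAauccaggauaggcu
miR-26b-5p: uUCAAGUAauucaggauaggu
miR-22-3p: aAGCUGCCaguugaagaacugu
miR-21a-5p: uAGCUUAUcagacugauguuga
miR-206-3p: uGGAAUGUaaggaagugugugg

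The WT libraries held 6147836, 6135797 and 4761271 counts in replicates 1, 2 and 3. miR-1a-3p, the miRNA of the muscle fibre that is known to restrain growth and to favour differentiation, took 4385815, 4300126 and 3320562 of them. Its share of all counts was 71.3%, 70.1% and 69.7%, with exact binomial 95% intervals of 71.3034 to 71.3749%, 70.0464 to 70.1188% and 69.6998 to 69.7823%. The mean share was 70.4% ± 0.842 (SD, n = 3). The intervals of the 3 mice did not touch, since at this depth the counting error was small beside the difference between mice. The counts carry no molecular identifiers, so these intervals and the floors below cover counting error only. Shares are shares of sequenced reads, in which the ligation and amplification of each sequence also enter.

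Because 1 sequence took most of the reads, all shares below are, unless stated, shares of the counts other than miR-1a-3p, which numbered 1762021, 1835671 and 1440709. miR-1a-3p was counted 11.1, 10.1 and 9.26 times as often as the next miRNA, miR-133a-3p, a mean ratio of 10.2 ± 0.8995 (SD, n = 3). The ratio was highest in replicate 1, where miR-1a-3p had its highest and miR-133a-3p its lowest share. The 10 leading miRNAs behind miR-1a-3p held 72.7%, 72.5% and 72.0% of the remaining counts (mean 72.4% ± 0.369), and the 20 leading ones held 85.6% on average. In the 3 mice, 27, 28 and 28 miRNAs were enough for 90% of the remaining counts, and 98, 100 and 102 for 99% of them. The effective number of miRNAs, the exponential of the Shannon entropy, which gives how many equally abundant miRNAs would be as diverse, was 23.0, 23.3 and 23.3 (mean 23.2 ± 0.141, SD, n = 3), and with miR-1a-3p included it was 4.66 ± 0.164. The concentration of the pool was thus nearly equal in the 3 mice.

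**Figure D1:**
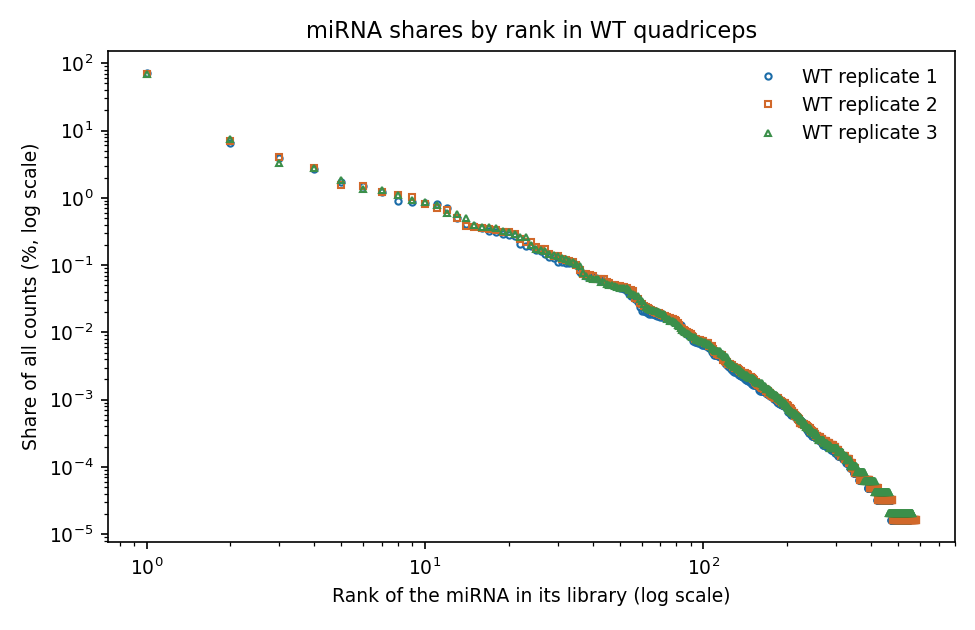
Share of all counts (%, log scale) of each counted miRNA against its rank in the library (log scale), 1 symbol shape for each of the 3 WT mice. miR-1a-3p at rank 1 lies near 70.4%, 10.2 times above the second miRNA on average, and the curves of the 3 mice lie close together over most of the range.

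Most of the counted miRNAs were rare. Of the 707, 449 were counted in all 3 mice, 90 in 2 and 168 in only 1. A single library held 550, 582 and 563 counted miRNAs in replicates 1, 2 and 3, the number being lowest in the deepest library. The mean count was at least 10000 for 24 miRNAs, at least 1000 for 73, at least 100 for 153 and at least 10 for 298, while 180 had a mean under 1. The miRNAs with a mean under 10 together held 0.0534% of the counts other than miR-1a-3p. The other 1259 entries were listed at 0 in every WT library, and 202 of these had counts in a knockout library, at a knockout group mean of at most 3.33. For an entry whose reads were counted in full, a count of 0 in a WT library allows up to 3 counts, which is 0.488 to 0.630 CPM (counts per 1000000 counts of the library), and the table does not show which entries these are.

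The second miRNA of the pool, miR-133a-3p, is the partner of miR-1 on its primary transcripts and is known to act on muscle growth and fibre structure. It took 22.5%, 23.1% and 24.9% of the counts other than miR-1a-3p (23.5% ± 1.24, SD, n = 3). miR-30a-5p took 13.7%, 13.5% and 10.97% (12.7% ± 1.54), lowest in replicate 3, where miR-133a-3p was highest. miR-26a-5p, which is known to promote myogenic differentiation by acting on Ezh2, took 9.21%, 9.20% and 9.05%, and its relative spread (9.15% ± 0.0893) was the smallest of these 20 miRNAs. These 3 miRNAs held the same order in every mouse with ranges that stood apart.

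Behind them the order was less firm. let-7f-5p (6.04%, 4.98% and 6.16%) and miR-30d-5p (5.17%, 5.26% and 4.27%) overlapped, and their order was turned in replicate 2. miR-22-3p, which is abundant in heart and skeletal muscle and takes part in hypertrophy, took 4.24%, 4.11% and 4.47%. miR-21a-5p, an miRNA of many cell types that is linked with fibrosis and inflammation, took 2.84%, 3.71% and 3.66%, lowest in replicate 1, and its range stood below that of miR-22-3p. Then came miR-30c-5p (3.05% ± 0.460), let-7g-5p (2.86% ± 0.173), let-7a-5p (2.78% ± 0.356) and miR-30e-5p (2.19% ± 0.246).

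The next 9 miRNAs of the table lay between 1.66% and 0.996%. miR-378a-3p, which lies in the gene of the metabolic coactivator PGC-1beta, took 1.43%, 1.68% and 1.89%, highest in replicate 3. let-7c-5p took 1.54% ± 0.276 and miR-143-3p, an miRNA of smooth muscle, 1.24% ± 0.0737. The others were miR-125a-5p (1.18% ± 0.145), let-7i-5p (1.14% ± 0.0962), let-7d-5p (1.13% ± 0.148), miR-29a-3p (1.09% ± 0.114), miR-125b-5p (1.03% ± 0.0888) and miR-26b-5p (0.996% ± 0.0621). Of the 20 pairs of neighbours in the order from miR-133a-3p to the miRNA behind miR-26b-5p, miR-23a-3p, 6 had ranges that stood apart and 14 overlapped. The order below miR-26a-5p is therefore mostly within the spread among mice, although 19 of the 20 most abundant miRNAs of each mouse were common to all 3.

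**Figure D2:**
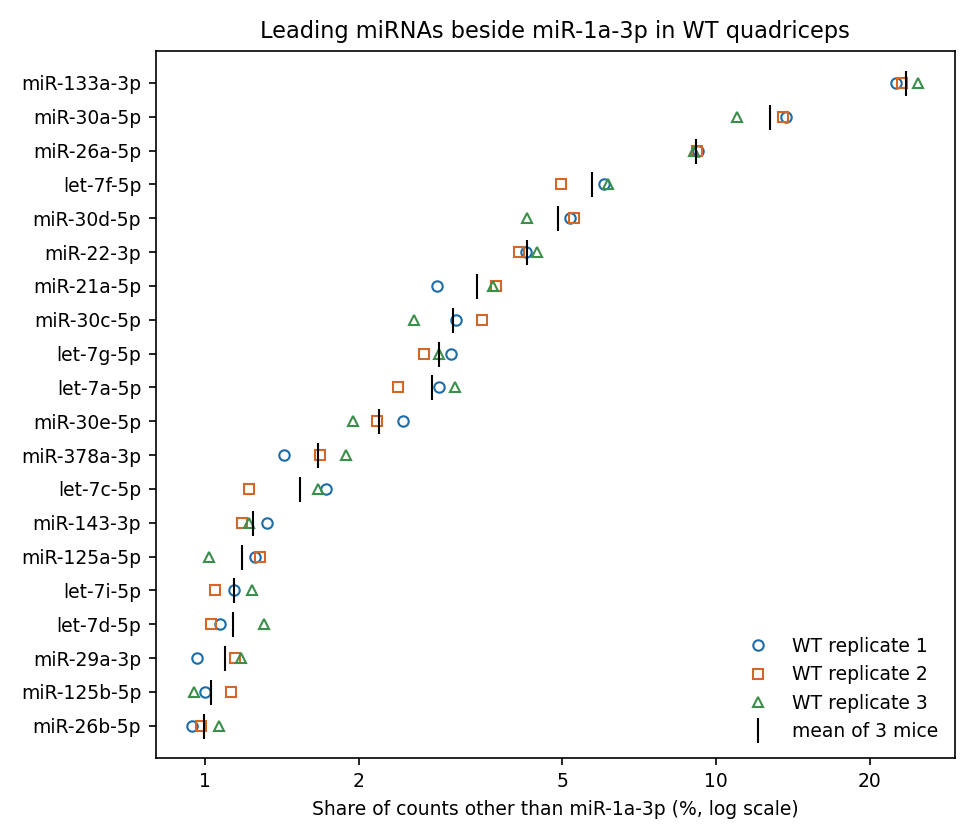
Share of counts other than miR-1a-3p (%, log scale) of the 20 miRNAs that follow it, 1 symbol shape for each WT mouse and a vertical bar for the mean. miR-133a-3p lies near 23.5% and miR-26b-5p near 0.996%, and the symbols of most neighbours below miR-26a-5p overlap.

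Grouped into families, 4 groups held most of the pool beside miR-1a-3p: the other myomiRs, miR-30, let-7 and miR-26. The other myomiRs, listed by their leading arms and so without miR-133a-5p, took 22.7%, 23.3% and 25.1% (23.7% ± 1.23), of which 99.1% was miR-133a-3p. With miR-1a-3p counted in, myomiRs made up 77.9%, 77.1% and 77.3% of all counts.

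Among the lesser myomiRs, miR-206-3p, which shares most of its sequence with miR-1 and is known from regenerating and slow muscle, had 4031, 3770 and 2917 counts. It made up 0.212% ± 0.0144 of the counts other than miR-1a-3p and ranked 43rd. miR-133b-3p, made from the same locus, had 51, 70 and 68 counts in this table, which may not hold all of its reads. miR-499-5p, which lies within the slow myosin gene Myh7b, had 29, 22 and 7 counts, lowest in the shallowest library. miR-1b-3p had 1 count in replicate 1 and none in the others. miR-208a-3p, the myosin miRNA of the heart, miR-208b-3p, its counterpart in slow muscle, miR-486a-5p and miR-486b-5p were listed at 0 in the 3 mice. The zeros of miR-486 are in doubt, since it stands high in the study's own counting, and the myomiR share leaves it out.

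The miR-30 family, which many tissues express and which is abundant in heart and muscle, took 24.6%, 24.7% and 19.9% (23.1% ± 2.73, SD, n = 3). Within the family miR-30a-5p made up 55.2%, miR-30d-5p 21.2%, miR-30c-5p 13.2%, miR-30e-5p 9.48% and miR-30b-5p 0.924% on average. All 5 members had their lowest share in replicate 3, which stood apart from the other mice for the family as a whole.

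The let-7 family took 16.5%, 13.8% and 17.0% (15.8% ± 1.70). let-7f-5p made up 36.3% of it, let-7g-5p 18.2%, let-7a-5p 17.6% and let-7c-5p 9.68%. All 9 let-7 miRNAs with a mean of at least 100 counts, miR-98-5p among them, had their lowest share in replicate 2. The 2 families thus moved apart among the mice, with 149, 179 and 117 miR-30 counts for every 100 let-7 counts in replicates 1, 2 and 3.

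The miR-26 family varied least among the large families, with 10.2%, 10.2% and 10.1% (10.1% ± 0.0327). Its 2 members moved in opposite ways, miR-26a-5p being highest in replicate 1 and miR-26b-5p in replicate 3. miR-26a-5p made up 90.2% of the family.

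Smaller families were led by 1 member or shared by a few. The miR-125 family (2.21% ± 0.221) was divided between miR-125a-5p, 53.5% of it, and miR-125b-5p, 46.5%. The miR-378 family (1.66% ± 0.229) was almost all miR-378a-3p in this table, which may hold the reads of miR-378a-3p and miR-378c only in part. The miR-23 pair took 1.496% ± 0.0773, of which miR-23a-3p was 53.6%. The miR-29 family, known to repress collagens and other matrix genes, took 1.02%, 1.21% and 1.26%, and miR-29a-3p made up 94.1% of it. All 3 miR-29 members were lowest in replicate 1 and highest in replicate 3.

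The miR-10 pair (1.13% ± 0.108) and the miR-99/100 family (0.985% ± 0.0800), the first known from Hox loci and the second from loci shared with let-7, followed. The miR-15/16 family, which restrains the cell cycle, took 0.688% ± 0.0205, and miR-16-5p made up 81.0% of it. The miR-181 family took 0.568%, 0.564% and 0.560%, so its 3 values nearly coincided. The miR-17 family, which is linked to proliferation, took only 0.154%, 0.178% and 0.212%, mostly as miR-93-5p. miR-103-3p and miR-107-3p together took 0.394%, 0.464% and 0.556%, lowest in replicate 1 and highest in replicate 3.

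**Figure D3:**
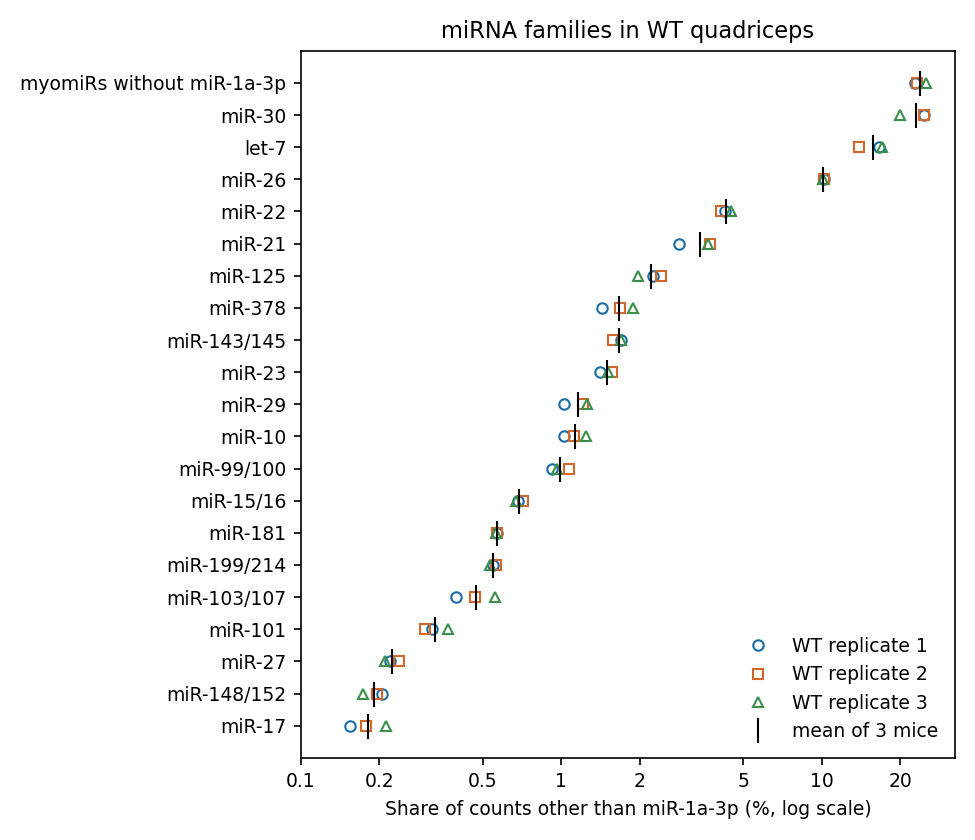
Share of counts other than miR-1a-3p (%, log scale) of 21 miRNA families, 1 symbol shape for each WT mouse and a vertical bar for the mean. The miR-30 value of replicate 3 and the let-7 value of replicate 2 lie to the left of the other mice, while the 3 miR-26 symbols coincide near 10.1%.

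Adding to the named families the other miRNAs with the seed of a member changed the shares little. Named members without a sequence were kept, so this closeness was largely built in. miR-125 rose to 2.23% once miR-351-5p, which has its seed, was added. Among the miRNAs with a sequence there were 517 seeds, 63 of them in more than 1 miRNA. The seed GUAAACA of miR-30a, miR-30c and miR-30e took 18.0% of the counts other than miR-1a-3p, GAGGUAG of let-7 15.8% and UCAAGUA of miR-26 10.1%.

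Sequence features were also given by row and by count. Among the 267 miRNAs with a sequence and a mean of at least 10 counts, 43.8% began with U, close to the 43.0% of all 614 with a sequence, yet these held 82.6% ± 0.722 of the counts. Likewise 58.1% of them were 22 bases long and held 82.2% ± 0.939 of the counts. The count-weighted GC content was 42.1% and the median of the miRNAs 45.8%. These values cover the miRNAs with a sequence, which held 66.2% of the counts other than miR-1a-3p. A few abundant families weigh most in them, let-7 and miR-30 above all.

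Several abundant miRNAs differ from a relative by a single base, so their division rests on exact reads of that base. miR-30a-5p and miR-30e-5p differ in 1 of 22 bases and were counted 216076 and 36951.7 times on average, and let-7f-5p and let-7a-5p, also 1 base apart, 95531.7 and 46309 times. miR-27b-3p was counted 3753.33 times and miR-27a-3p, 1 base apart, 6 times, and miR-103-3p 7755 times against 70.3 for miR-107-3p. miR-199a-3p and miR-199b-3p have the same 22 bases and yet were listed with different mean counts, 3794.33 and 1846, so their division cannot be read as expression of 2 genes. Both of these pairs are shown, the first differing behind the seed and the second identical throughout.
miR-27b-3p: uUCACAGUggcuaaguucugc
miR-27a-3p: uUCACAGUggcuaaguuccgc
miR-199a-3p: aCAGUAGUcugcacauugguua
miR-199b-3p: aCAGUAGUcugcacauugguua

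Arm use was measured in 99 hairpins whose 2 arms carried the same name, both had a WT count and together had a mean of at least 100 counts. Hairpins with a copy number in the name of only 1 arm, such as those of miR-1a, miR-26a, let-7f and miR-30c, were left out. With such copies summed there were 117 hairpins, 85 of them with over 90% in 1 arm. In 70 of the 99 (70.7%) more than 90% of the counts came from 1 arm, in 41 more than 99%, and in 14 the leading arm held less than 75%. The median share of the leading arm was 98.4%. The 5p arm led in 61 hairpins and the 3p arm in 38.

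Among the abundant hairpins, miR-30d, miR-21a and let-7g gave almost only 5p, with 99.990%, 99.993% and 99.998% on average. miR-30a gave 98.7%, 98.7% and 98.6% of 5p, yet its 3p arm still had a mean of 2850.33 counts. In miR-133a the 5p share was 2.19%, 2.48% and 2.22%, in miR-22 2.77%, 3.68% and 2.63%, and in miR-378a 4.27%, 3.86% and 3.29%, so the 3p arm led in the 3 mice. miR-143 gave 0.183% ± 0.0478 of 5p. miR-125a gave 99.962% of 5p.

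Among the hairpins measured, which lack let-7a, let-7c and let-7f, let-7d was the most evenly used of the 10 most counted. Its 5p share was 85.0%, 86.1% and 89.7%, highest in replicate 3, and its 3p arm had a mean of 2838 counts, whereas let-7g-3p, from the other let-7 hairpin among these 10, had a mean of 0.667. Their arms are shown because their 5p sequences are alike and their use differed.
let-7d-5p: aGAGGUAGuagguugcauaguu
let-7d-3p: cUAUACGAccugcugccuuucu
let-7g-5p: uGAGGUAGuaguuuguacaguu
let-7g-3p: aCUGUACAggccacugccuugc

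Of the 99 hairpins measured, the 5 with the most even arms were miR-362, miR-674, miR-127, miR-199a and miR-1843a. miR-362 had a 5p share of 58.1%, 46.9% and 48.6%, and miR-674 of 41.7%, 37.1% and 56.9%. In these 2 hairpins, and in no other of the 99, the leading arm changed between mice. Their mean counts of both arms together were only 179 and 210. miR-127, an imprinted miRNA, gave 44.5%, 41.1% and 48.1% of 5p, and miR-1843a 62.4%, 61.6% and 59.6%. miR-199a, with a mean of 6740.33 counts, gave 45.1%, 45.2% and 39.9%. It was the only one of the 5 with a mean above 1000, and its arms share no seed.
miR-199a-5p: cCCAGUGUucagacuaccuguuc
miR-199a-3p: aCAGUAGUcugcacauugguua
miR-362-5p: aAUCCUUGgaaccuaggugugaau
miR-362-3p: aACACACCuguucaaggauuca
miR-674-5p: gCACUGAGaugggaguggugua
miR-674-3p: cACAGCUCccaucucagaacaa

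The 3p share of miR-199a counts only the reads listed under miR-199a-3p, and the identical reads listed under miR-199b-3p would raise it. The SD of the 5p share among the mice had a median of 0.495 percentage points over the 99 hairpins, most of which lie so near to 0% or 100% that their SD is bound to be small. In the 14 hairpins with a leading arm under 75% it ran from 1.44 points in miR-1843a to 7.90 in miR-872 and 10.4 in miR-674. In 81 of the hairpins both sequences were at hand, and in 45 of these exactly 1 arm began with U. That arm was the leading one in 36 of the 45 (80%), which is a description of these hairpins.

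**Figure D4:**
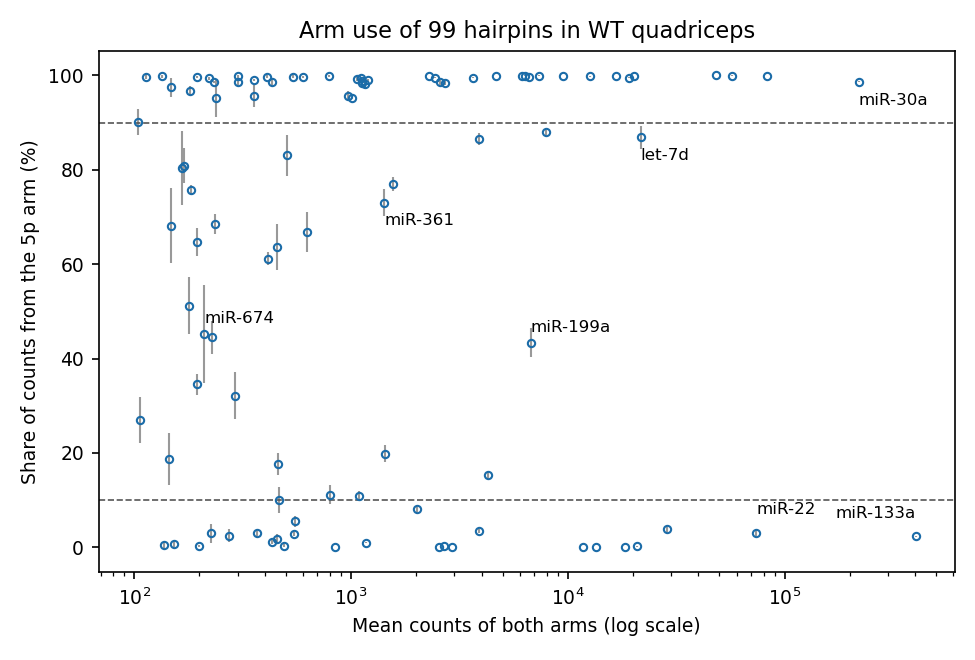
Share of counts from the 5p arm (%) of 99 hairpins against the mean count of both arms (log scale), with circles for the mean and grey lines for ± 1 SD of the 3 WT mice. Dashed lines mark 90% and 10%, outside which 70 hairpins lie, and miR-199a stands apart among the abundant hairpins with 43.4%.

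A further 11 arms were listed at 0 in the 3 WT mice beside a partner with a mean of at least 100 counts, 6 of them at 0 in all 9 libraries. miR-30e-3p was listed at 0 beside miR-30e-5p with 42983, 39806 and 28066 counts. miR-206-5p was at 0 beside miR-206-3p, and miR-320-5p and miR-146a-3p beside partners with means of 1461 and 648. These pairs were left out of the arm measures. miR-24-3p, which lies beside miR-23 and miR-27 in the genome, miR-126a-3p and miR-126a-5p were also listed at 0. miR-206-5p, miR-320-5p, miR-351-3p, miR-574-5p and miR-539-3p had counts in a knockout library, so they were counted entries. An entry at 0 in all 9 libraries can be one that was not counted, and says nothing of expression.

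Neighbouring precursors did not give equal counts. Whether they share a transcript was not tested. Precursors without a mature sequence at hand and those on 1 chromosome were left out, among them those of miR-133a, miR-30d, miR-378a, miR-143 and miR-145a. The counts of miR-1a-3p entered no precursor, so the loci behind most of the reads are not covered. On GRCm39, with GENCODE genes, 223 precursors with a mean of at least 10 counts were placed, 106 in introns, 86 in exons and 31 outside genes. Within 10 kb on 1 strand 101 of them formed 32 clusters, and in the 17 clusters with at least 2 members not shared with another locus the highest member was counted 14.8 times as often as the lowest at the median, from 1.29 to 143 times.

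The widest gap was that of Mir23a and Mir27a (chr8:84935147-84935387, plus strand, outside genes), with 148, 141 and 141 times as many counts from Mir23a in the 3 mice. This gap and the next rest on miR-27a-3p, with 7, 8 and 3 counts beside its near-identical relative miR-27b-3p, and on miR-133b-3p, whose reads this table may hold only in part. Mir23b, with the same doubt over miR-27b-3p, was counted 3.03, 2.98 and 3.03 times as often as Mir27b (chr13:63448298-63448598, plus strand, in Aopep). Mir206 and Mir133b (chr1:20749234-20753111, plus strand, exons of the long noncoding RNA Lincmd1) differed 79.0-, 53.9- and 42.9-fold. In the cluster of Mir99b, Mirlet7e and Mir125a (chr17:18050450-18051141, plus strand, in Spaca6) Mir125a was counted 17.9, 19.5 and 12.7 times as often as Mirlet7e. Mir93 exceeded Mir106b 14.8 ± 1.47 times within Mcm7 (chr5:138163583-138164080, minus strand).

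At the other end Mir221 and Mir222 (chrX:19012533-19013210, minus strand, exons of Gm26652) differed 1.20-, 1.18- and 1.48-fold, and Mir182 and Mir183 1.65-fold on average. The order within each of these clusters was the same in every mouse. Of the abundant unshared precursors, Mir30a (chr1:23311350-23311420) lay outside genes, Mir22 (chr11:75354542-75354636) overlapped an exon of Tlcd2, Mir21a (chr11:86474893-86474984) an exon of Vmp1, and Mirlet7g (chr9:106056039-106056126) lay in an intron of Wdr82. Counts of miRNAs with more than 1 precursor, such as miR-26a-5p and let-7f-5p, could not be divided between loci.

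The spread among the mice was set beside that of counting alone, which separate libraries exceed for abundant miRNAs in any case. Over 298 miRNAs with a mean of at least 10 counts, scaled by TMM to CPM, the median coefficient of variation was 15.0%, where counting alone would give 9.33%. edgeR's common biological coefficient of variation was 13.5%. For 118 of the 298 the coefficient was more than 2 times that of counting. Among the 153 miRNAs with a mean of at least 100, the quartiles were 6.69%, 10.2% and 14.8%, 75 lay under 10% and 18 over 20%, and 25 lay within what counting gives.

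The 5 most variable of the 153 were miR-146b-5p, miR-224-5p, miR-3102-3p, miR-193a-5p and miR-365-3p. miR-146b-5p, known from inflammation, had 180, 135 and 289 CPM (coefficient 39.2%). miR-224-5p had 18.2, 20.2 and 34.7, and miR-193a-5p 44.4, 44.5 and 75.04. miR-365-3p had 217, 240 and 365 CPM. In these 4 replicate 3 was highest, while miR-3102-3p was highest in replicate 2 with 30.2 against 16.6 and 17.1.

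Of the 18 miRNAs over 20%, 11 were highest in replicate 3, 5 in replicate 2 and 2 in replicate 1. Among those highest in replicate 3 were miR-146a-5p, with 116, 92.7 and 140 CPM, and miR-223-3p, a granulocyte miRNA, with 62.5, 52.0 and 77.7. Of the other blood and immune miRNAs, miR-451a was also highest in replicate 3 with 66.7, 95.1 and 101 CPM. miR-155-5p was highest in replicate 2 with 69.5, 74.8 and 70.7. miR-150-5p was lowest in replicate 3 with 135, 153 and 127, and so was miR-142a-5p with 7.03, 10.3 and 6.17. Also highest in replicate 3 were miR-34a-5p, a target of p53, with 27.5, 32.1 and 45.0, miR-20a-5p (34.0, 37.6 and 52.4) and miR-15a-5p (31.9, 35.4 and 51.8). Of the family of miR-15a-5p, miR-322-5p was also highest there (68.5, 71.5 and 84.3) and miR-15b-5p was nearly level (62.8, 61.6 and 62.9). The far more abundant miR-16-5p was lowest in replicate 3 with 1692, 1672 and 1588 CPM, as were miR-195a-5p (160, 172 and 154) and miR-497a-5p (49.2, 46.1 and 43.8). Neither group of miRNAs thus moved one way. miR-139-5p was highest in replicate 2, with 156, 261 and 174, and let-7b-5p was lowest there. Replicate 3 was also the shallowest library, and the part of depth in these values was not tested.

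The 5 steadiest miRNAs were miR-320-3p (256, 259 and 258 CPM, coefficient 0.585%), miR-181b-5p (302, 303 and 307), miR-15b-5p (62.8, 61.6 and 62.9), miR-378a-5p (193, 195 and 190) and miR-185-5p (96.3, 93.8 and 94.2). Their coefficients lay below what counting alone gives, and they were chosen as the lowest of 153.

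**Figure D5:**
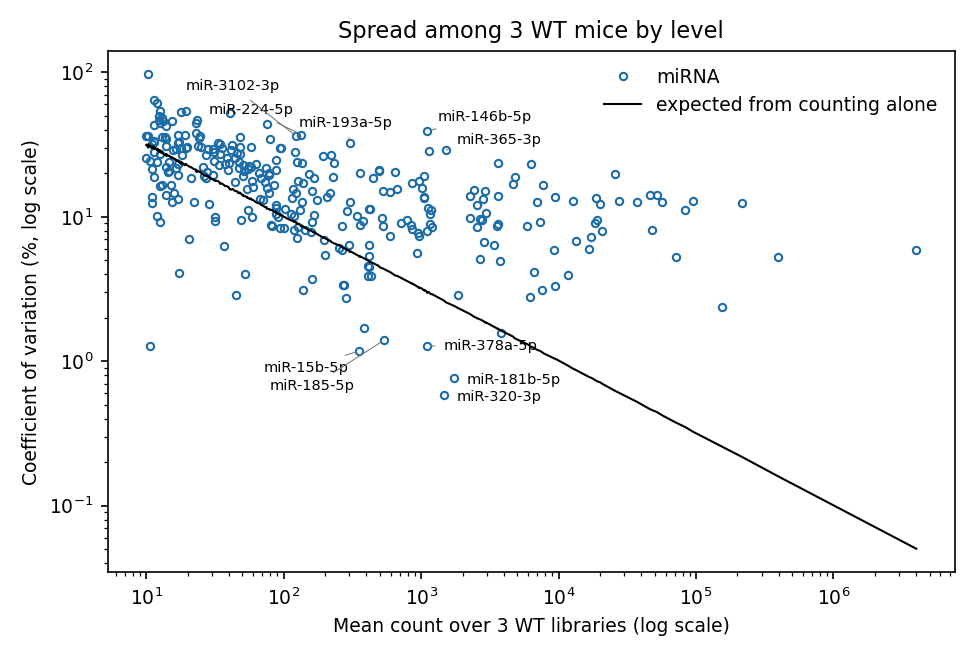
Coefficient of variation (%, log scale) of TMM-scaled CPM among the 3 WT mice against the mean count (log scale), 1 circle for each of 298 miRNAs. The line is the coefficient expected from counting alone, and most of the abundant miRNAs lie above it, with miR-146b-5p at 39.2%.

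Between pairs of mice, over about 300 miRNAs each (308, 293 and 296), the ranks were close, with Spearman correlations of 0.982 for replicates 1 and 2, 0.979 for 1 and 3 and 0.979 for 2 and 3, given as descriptions across miRNAs that share each library. The SD of the log2 ratio of shares was 0.38, 0.49 and 0.46. The chi-square of the counts per degree of freedom was 38.0, 61.9 and 69.3, so no library held the counts of another deposited a second time.

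miRNAs known from other cell types were also counted. In bulk tissue fewer cells of a type and less RNA per cell cannot be told apart. Of the muscle fibre markers 5 of 7 were counted, miR-208b-3p and, in doubt, miR-486a-5p being at 0. miR-143-3p and miR-145a-5p, miRNAs of smooth muscle and pericytes, together took 15816.6 to 17013.2 CPM, with the library taken here without miR-1a-3p. The 3 fibroblast miRNAs, miR-199a-3p, miR-199a-5p and miR-214-3p, took 4063.97 to 4416.37 CPM, so both lists were nearly level among the mice.

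Of the 7 blood and immune miRNAs 6 were counted, at 1127.68 to 1327.58 CPM together. The erythroid miR-451a had 389, 602 and 490 counts, the lymphocyte miR-150-5p 788, 966 and 617, miR-223-3p 364, 329 and 378 and miR-155-5p 405, 474 and 344, while the haematopoietic miR-142a-3p was listed at 0 and miR-142a-5p had 41, 65 and 30. Both arms of the endothelial miR-126a were at 0. Of the 4 nervous system miRNAs the list was almost all miR-128-3p, with 2804, 3383 and 2152 counts, which muscle is known to express too. miR-124-3p had 0, 0 and 2 counts, and miR-9-5p and miR-9-3p were at 0. The 6 epithelial miRNAs took 8.17 to 17.4 CPM, miR-141-3p and miR-203-3p being listed at 0. The 3 pancreatic miRNAs took 0 to 2.08 CPM, and miR-122-5p of the liver and miR-208a-3p of the heart were at 0. The zeros of miR-203-3p, miR-142a-3p, miR-126a, miR-9-5p and miR-9-3p and the low counts of miR-142a-5p are in doubt, since these miRNAs stand higher in the study's own counting.

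The WT pool was set against the knockouts in 5 pool measures, each compared by a two-sided exact permutation test of 3 against 3 mice, which cannot give a p below 0.10, with Benjamini-Hochberg adjustment over all 10 tests. Both comparisons share the WT libraries. In the Mbnl1KO mice miR-1a-3p took 61.4%, 68.6% and 65.4% of all counts, each below the lowest WT mouse (difference -5.25 percentage points, exact p = 0.10, adjusted 0.20). Without Mbnl1KO replicate 1, the lowest, the difference was -3.35. The 5p arms took 63.9%, 63.0% and 60.6% of the counts other than miR-1a-3p in WT and 57.7%, 58.6% and 56.3% in Mbnl1KO, again without overlap (difference -5.01, exact p = 0.10, adjusted 0.20). The myomiR share without miR-1a-3p (difference 2.30, exact p = 0.30, from 1.47 without Mbnl1KO replicate 3 to 3.81 without Mbnl1KO replicate 2), the share of the 10 leading miRNAs (-1.28, exact p = 0.20) and the effective number (0.61, exact p = 0.70) overlapped with WT.

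In the Mbnl2KO mice the share of miR-1a-3p, 69.6%, 67.2% and 73.7%, lay on both sides of WT (difference -0.21, exact p = 0.80). Their myomiR share without miR-1a-3p was 20.6%, 21.8% and 20.9%, below the 3 WT mice (difference -2.59, exact p = 0.10, adjusted 0.20). The share of the 10 leading miRNAs was lower (-0.96) and the effective number higher (0.90) without overlap, both at an exact p of 0.10 and an adjusted p of 0.20, and the 5p share overlapped (1.92, exact p = 0.20, and 0.97 without WT replicate 3). By the labels the strain of the Mbnl2KO mice differed from that of the WT mice, described as littermates, and from the labels alone strain and genotype cannot be told apart. None of the 10 comparisons passed an adjusted p of 0.05, which this design cannot reach.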

How the data were processed

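Small RNA libraries were made from total RNA of quadriceps with a NEXTflex kit, 1 library per mouse, and the authors deposited 1 table of raw counts for mature miRNAs, not normalized. The study's methods describe clipping of adapters, collapsing of redundant reads, and matching without mismatches, in sense, to miRBase precursors, with reads counted over the annotated mature miRNA and a small margin. Whether this made the deposited table is not stated in it, and entries at or near 0 there include miRNAs that the study describes in these muscles. The submitters' processing notes name DESeq2. The WT totals of 4761271 to 6147836 counts set the counting error.

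Groups were taken from the sample titles. Shares, arm use and clusters were computed with Python 3.11.15, NumPy 2.4.6, pandas 2.3.3 and SciPy 1.17.1 and drawn with matplotlib 3.10.9. The spread was computed with edgeR 4.0.16 (TMM, dispersions of an intercept model) in R 4.3.3, with the size factors of DESeq2 1.42.0 as an alternative. Scripts were tested on simulated data. Arms were paired by name, and precursors were given both arms of their name. Families and markers were listed by name. The named miRNAs were the 20 most abundant and the members of described families. The 5 most and 5 least variable with a mean of at least 100 counts were also named. So were the 10 most counted and 5 most even of the hairpins measured, and markers of other tissues. miRNAs beyond these, among them those with listed zeros, near-identical sequences or clusters and those with a coefficient over 20%, were chosen after their values were seen. The members and lists were chosen with earlier results of these data known. Positions are GRCm39 (GENCODE), 1-based.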

Additional observations from a re-analysis of the deposited data

How the results depend on the processing

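For the WT pool itself, 150 alternative values stayed within a set limit and 39 moved further. The limit was 1 SD of the mice or, for counts of miRNAs, hairpins or clusters, 1.5 times the value given. For the spread among mice it was the SD of the values with 1 mouse left out. A mean over the mice cannot move by 1 SD when 1 mouse is left out. Many of the 150 were therefore bound to stay, and their number is no measure of stability. For the knockout comparisons 66 kept their direction and 4 reversed it, and since no p under 0.05 was possible there, these say nothing of stability. With miR-1a-3p included, the 10 leading miRNAs held 91.1% of counts, 9.33 miRNAs made up 90%, the effective number was 4.66, and myomiRs took 77.4%, let-7 4.67%, miR-30 6.83% and miR-26 3.00%. With at least 10 counts required, 336 miRNAs were detected in place of 707. The share of hairpins with over 90% in 1 arm was 81.3% (39 hairpins) at a mean of at least 1000 counts, 61.0% at 10, 72.6% with precursor copies summed and 73.6% with arms at 0 kept. With the scaling refitted to each set, the median coefficient of variation was 10.4% at a mean of at least 100 counts and 26.79% at 1, where counting alone gives 26.81%. The 10.2% given above at a mean of at least 100 used the scaling over 298 miRNAs. Leaving out each WT mouse gave 11.1% to 13.1% for the median coefficient of variation at a mean of at least 10 counts. A median of such coefficients tends to come out lower with fewer libraries, so the fall cannot be tied to single mice. The common biological coefficient of variation was then 10.9% to 14.9%.

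Leaving out 1 mouse at a time, the Mbnl1KO difference in effective number ran from -0.21 to 1.34 and was below 0 only when Mbnl1KO replicate 2 was left out. The Mbnl1KO difference in miR-1a-3p share ran from -6.99 to -3.35, nearest to 0 without Mbnl1KO replicate 1. The Mbnl1KO difference in myomiR share ran from 1.47 to 3.81, and the Mbnl2KO difference in 5p share from 0.97 to 2.63, lowest without WT replicate 3. The Mbnl2KO difference in miR-1a-3p share ran from -1.99 to 1.27. It was above 0 when WT replicate 1 (0.26), Mbnl2KO replicate 1 (0.08) or Mbnl2KO replicate 2 (1.27) was left out. The cause was not tested. Replicate numbers did not pair the samples (correlations of same-numbered deviations -0.16 to 0.10), and with the replicate block, whose smallest p is 0.25, the Mbnl1KO difference in miR-1a-3p share stayed -5.25 (exact sign-flip p = 0.25) and the other differences kept their sizes. Sequence features with miR-1a-3p included were not run, since its sequence was not used here. Depth limits miRNAs with a mean under 10, and shares of reads are not numbers of molecules.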

Other observations

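Several other miRNAs were also well counted in this table. miR-196a-5p, from Hox loci, had 4832, 4518 and 5030 counts in the 3 WT mice. miR-191-5p had 10328, 11332 and 6761, lowest in replicate 3, and miR-149-5p 4189, 6148 and 3640, highest in replicate 2. miR-3535 had 4597, 3866 and 2408 counts. The mature sequence of miR-3535 is the longest of these.
miR-196a-5p: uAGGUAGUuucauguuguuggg
miR-3535: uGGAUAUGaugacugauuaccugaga

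On chromosome 12 a cluster of 24 precursors with a mean of at least 10 counts lay at chr12:109675494-109709930 (GRCm39, plus strand), in an imprinted region. Mir411 of this cluster had 712, 640 and 447 counts. miR-379-5p had 12, 13 and 8, and is among the miRNAs this table may count only in part, so no order is given within the cluster. Nearby, Mir434 had 880, 875 and 641 counts. In the X-linked cluster within Clcn5, Mir532 had 336, 400 and 334 counts, Mir501 271, 293 and 257, Mir362 167, 194 and 175, and Mir500 10, 17 and 4, in this order in the 3 mice.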
